A study of Oryza sativa Japonica Group and Oryza sativa Indica Group with 10 samples.

Results

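The genes described here run the plant cell cycle and copy DNA in young rice panicles: cyclins, cyclin-dependent kinases, kinase inhibitors, subunits of the origin recognition complex (ORC) and of the MCM complexes, and the clamp PCNA. Members were chosen by name. A probe set, the group of short probes that reads 1 transcript on the array, was taken if it was paired with exactly 1 gene and if a symbol or synonym of that gene named a cyclin of type A, B, D, H, P, T or U, a kinase of type CDKA to CDKG, a KRP inhibitor, an ORC or MCM subunit, PCNA or an E2F factor. This gave 67 probe sets of 51 genes among 57258 rice probe sets, of which 22436 were paired with exactly 1 gene. No probe set carried the name of an E2F factor. By role, 8 probe sets of 7 genes read A and B cyclins, 10 of 9 genes D cyclins, 6 of 6 genes other cyclins, 6 of 3 genes CDKA and CDKB kinases, 13 of 8 genes other kinases, 6 of 4 genes inhibitors, 17 of 13 genes ORC and MCM subunits, and 1 read PCNA. The names are RefSeq symbols and synonyms. The locus listed as CYCB1-3 also bears the synonym CycB1-1, and the locus listed as ORC5 also bears the synonym OsORC1, so these identities carry some doubt.

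The data came from panicles 2 cm long of 93-11, an indica cultivar, and of Nipponbare, a japonica cultivar, and the labels name no treatment. Each cultivar is represented by 5 biological replicates, each labelled with biotin and placed on its own Affymetrix rice GeneChip, an array with 1 dye. Values are signals on a linear scale as the authors deposited them. The level of the arrays varied, with a trimmed mean signal of 196 to 236 on the 93-11 arrays and 205 to 377 on the Nipponbare arrays. The cultivars were therefore compared as deposited and after each array was scaled to a common trimmed mean. Where only a scaled difference is given for a gene, that gene was not called as deposited.

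In every eukaryotic cell cycle a cyclin binds and switches on a cyclin-dependent kinase. D cyclins act mainly at the entry into the cycle, A cyclins from S phase onward and B cyclins around mitosis, while CDKB kinases are particular to plants and act from G2 to M. KRP proteins bind cyclin-kinase complexes and hold them back. ORC marks the origins where replication begins, the MCM proteins from MCM2 to MCM7 form the ring that unwinds DNA there, and PCNA clamps the polymerase to its template. The young panicle is a place of intense division, since its branch and flower meristems still form organs. As the samples are bulk tissue, fewer dividing cells and less transcript per cell cannot be told apart. The array was designed mostly on japonica transcripts, so a lower signal in 93-11 from less transcript and one from probes that mismatch the indica sequence cannot be told apart either. Signals of different probe sets are not on a common scale of transcript number and are ordered here only as signals.

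The cell cycle genes were well detected in both cultivars. A probe set was counted as above a log10 signal of 2.5 where the mean log10 signal over the 5 arrays of a cultivar exceeded it. The value was borrowed from the methods of the study, which apply it to the intensities of the PM probes of a probe set and not to summarised signals. By this measure 46 of the 67 probe sets (68.7%) were above it in both cultivars, against 19.2% of all rice probe sets and 40.1% of those paired with exactly 1 gene. In Nipponbare alone 2 more passed, the ORC4 probe set whose name ends in S1_s_at and the CDKG-1 probe set ending in S2_at, and none passed in 93-11 alone. The other 19 passed in neither cultivar. After scaling 45 passed in both, since CYCA1-4 and a probe set of OsMCM9 then passed in 93-11 alone.

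Levels varied by role. As deposited, all 8 probe sets of A and B cyclins and all 10 of D cyclins were above the threshold in both cultivars, as were 6 of 6 for MCM2 to MCM7. The share was 4 of 6 for the other cyclins, 4 of 6 for CDKA and CDKB, 8 of 13 for the other kinases, 3 of 6 for ORC and 2 of 6 for the inhibitors. None of the 5 probe sets of OsMCM8 and OsMCM9, relatives of the helicase ring that are known in other eukaryotes for roles in recombination, passed in either cultivar as deposited. The median signal of the A and B cyclins was 1347 in 93-11 and 1580 in Nipponbare, and that of MCM2 to MCM7 was 2313 in 93-11 and 2361 in Nipponbare. ORC probe sets were weaker, with a median of 367 in 93-11 and 403 in Nipponbare. The median of the 6 inhibitor probe sets was lower still, at 91.0 in 93-11 and 134 in Nipponbare. That median counts a near-background additional probe set each of KRP4 and KRP6, so it does not rank the inhibitor genes. By gene, KRP4 and KRP5 had a probe set above the threshold in both cultivars, and KRP1 and KRP6 had none. KRP5 had a mean signal of 3766 in 93-11 and 3491 in Nipponbare.

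**Figure D1:**
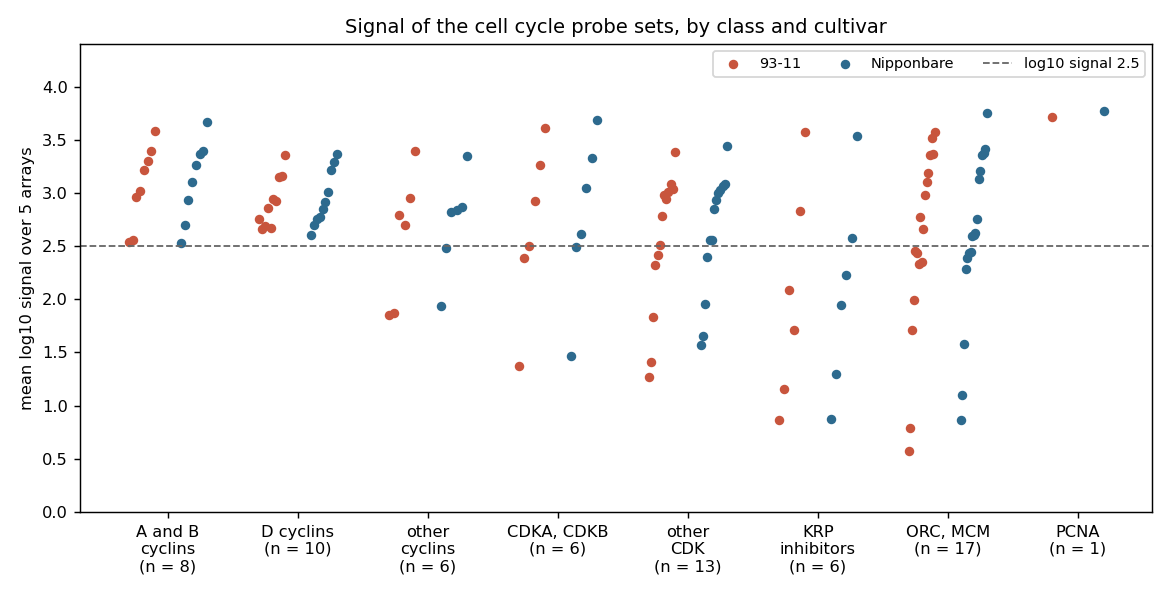
Mean log10 signal over 5 arrays (vertical axis) of each of the 67 probe sets, by role, with 93-11 in red left of Nipponbare in blue and the log10 threshold of 2.5 as a dashed line. All A, B and D cyclin probe sets lie above the line in both cultivars, while 4 of the 6 KRP probe sets do not.

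OsPCNA had the strongest signal of all members in both cultivars, and the mitotic genes CDKB2-1 and CYCB1-1 led the kinases and the A and B cyclins. OsPCNA (LOC4331062) gave 5953, 4489, 5678, 5049 and 4766 on the 93-11 arrays, against 5980, 7870, 4864, 6185 and 5093 on the Nipponbare arrays. The ranges overlapped, and the difference of 93-11 minus Nipponbare on the log2 scale was -0.20 ± 0.16 as deposited (SE, n = 5 each, limma adjusted p = 0.527) and 0.16 ± 0.09 scaled (limma adjusted p = 0.290). CDKB2-1 (LOC4346016), the mitotic kinase, gave 4100, 3577, 4368, 4076 and 4180 in 93-11, against 4892, 6615, 4299, 4871 and 4015 in Nipponbare. It was the strongest kinase signal in both cultivars, and its scaled difference was 0.09 ± 0.08 (SE, n = 5 each, limma adjusted p = 0.516). CYCB1-1 (LOC4327547), a B cyclin, gave 4608, 3788, 4211, 3425 and 3354 in 93-11, against 4181, 6794, 4482, 4808 and 3595 in Nipponbare, with a scaled difference of 0.08 ± 0.08 (SE, n = 5 each, limma adjusted p = 0.594). For these 3 genes no difference was called under either scale, and the deposited differences were negative while the scaled ones were positive.

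As deposited, 59 of the 67 probe sets were not called, beside 49519 of all 57258 rice probe sets. The lack of a call does not show that a gene was equal in the cultivars. At an adjusted p under 0.05 (limma, Benjamini-Hochberg over all 57258 probe sets), 3 of the 67 were higher in 93-11, against 1.66% of all rice probe sets and 1.68% of those paired with 1 gene, and 5 were lower (7.46%), against 11.9% of all and 17.8% of the paired. The 3 higher ones read KRP4, ORC1 and ORC2, and the 5 lower ones read CYCP4-1, KRP1, ORC4 (both of its probe sets) and OsMCM2. After scaling, 18 of the 67 (26.9%) were higher in 93-11, against 7.84% of all rice probe sets and 12.6% of the paired, and 4 (5.97%) were lower, against 9.21% of all and 13.6% of the paired. All 3 higher calls and 4 of the 5 lower calls were made under both scales, OsMCM2 was called lower as deposited and not after scaling, and 15 probe sets were called higher only after scaling. By gene, 18 genes had a probe set called higher and 3 a probe set called lower after scaling, and none had both.

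The choice of scale sets the zero of these differences. The median difference of the 67 was -0.18 as deposited and 0.16 scaled, and that of all rice probe sets was -0.16 as deposited and 0.03 scaled. Scaling to 9 hybridization control probe sets, spiked into each sample, put the members' median at -0.0041, with 5 probe sets called higher (KRP4, ORC1, ORC2, OsMCM5 and CYCD5-1) and the same 4 called lower. Strong probe sets as a whole also lay above zero after scaling. Of the 11006 rice probe sets above 2.5 in both cultivars, 19.2% were called higher and 7.70% lower with a median difference of 0.12, against 15 higher and 0 lower with a median of 0.21 for the 46 members among them. The requirement in both cultivars leaves out CYCP4-1, KRP1 and ORC4, the members called lower after scaling. At an unadjusted p under 0.05, limma put 1 of the 46 lower, and so did the methods' t-test.

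**Figure D2:**
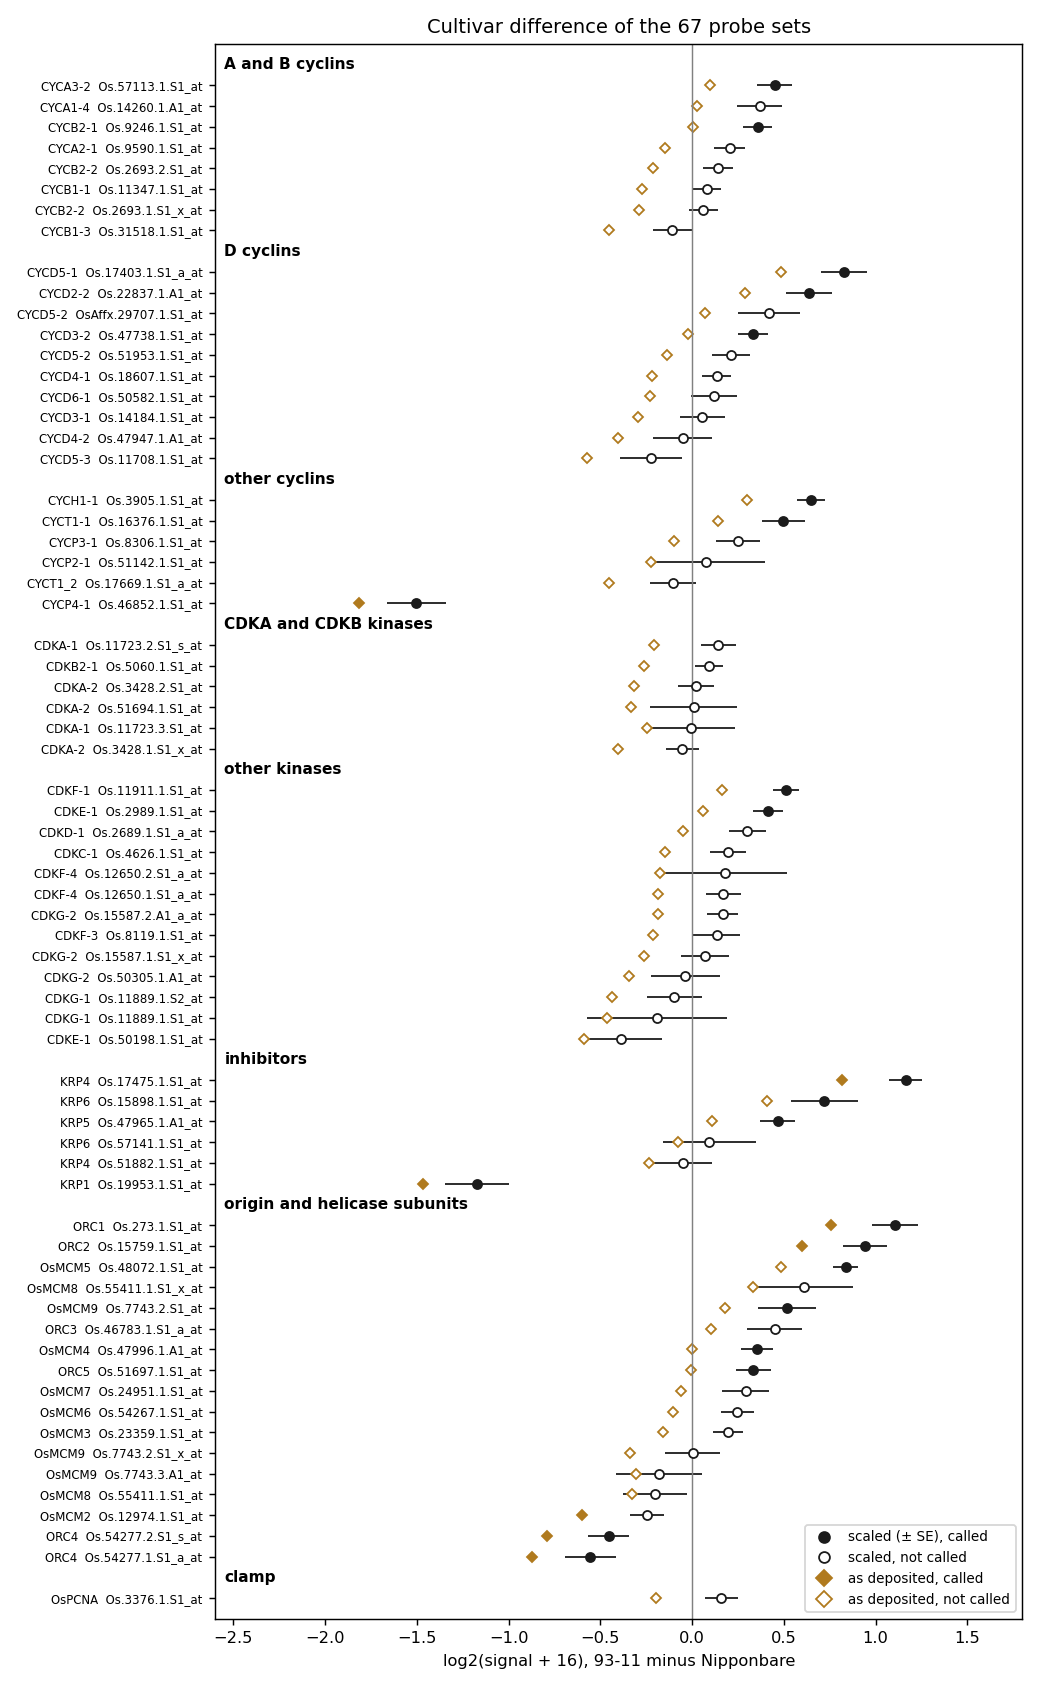
Difference of log2(signal + 16), 93-11 minus Nipponbare (horizontal axis), for each of the 67 probe sets by role, scaled (circles, bars are SE) and as deposited (diamonds), filled where called in limma. The scaled values run from -1.50 for CYCP4-1 to 1.16 for KRP4, and 49 of the 67 lie above zero after scaling against 19 as deposited. Of all 57258 rice probe sets, 31767 lie above zero after scaling and 15781 as deposited. Of the 11006 above 2.5 in both cultivars, 7616 do after scaling and 1884 as deposited.

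Inhibitors were called in both directions. KRP4 (LOC4348872) gave 865, 646, 752, 540.3 and 620.1 in 93-11, against 358, 508, 375, 352 and 315 in Nipponbare. Every 93-11 array lay above every Nipponbare array. The difference was 0.82 ± 0.17 as deposited (SE, n = 5 each, limma adjusted p = 0.00325) and 1.16 ± 0.09 scaled (limma adjusted p = 6.04e-07), the largest rise among the members on both scales. KRP4 has a further probe set, which read at most 17.8 on the 93-11 arrays and 25.1 on the Nipponbare arrays and was not called.

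KRP1 (LOC4330816), of the same family, went the other way. It gave 52.7, 53.0, 65.8, 35.9 and 54.5 in 93-11, against 138, 209.7, 256, 143 and 137 in Nipponbare, with no overlap. The difference was -1.47 ± 0.22 as deposited (SE, n = 5 each, limma adjusted p = 1.46e-04) and -1.17 ± 0.18 scaled (limma adjusted p = 2.78e-04), and the signal was below the log10 threshold of 2.5 in both cultivars. KRP4 and KRP1 kept their calls and directions under every alternative in which they were tested.

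KRP5 (LOC4331554) gave the strongest inhibitor signal. It gave 3977, 3140, 3925, 3320 and 4469 in 93-11, against 3273, 4490, 3280, 3276 and 3135 in Nipponbare. The ranges overlapped as deposited, with a difference of 0.11 ± 0.16 (SE, n = 5 each, limma adjusted p = 0.734), and parted after scaling, with 0.47 ± 0.10 (limma adjusted p = 0.00392). KRP6 (LOC4347280) was weak, at 175, 91.7, 110.1, 85.8 and 186 in 93-11, against 84.5, 124, 95.5, 83.5 and 66.6 in Nipponbare. Its scaled difference was 0.72 ± 0.18 (SE, n = 5 each, limma adjusted p = 0.0137), while as deposited it was not called (limma adjusted p = 0.325). The further KRP6 probe set was near background at 10.2 ± 5.92 in 93-11 and 12.9 ± 11.8 in Nipponbare (SD, n = 5 each). With scaling to the hybridization controls neither KRP5 (limma adjusted p = 0.298) nor KRP6 (limma adjusted p = 0.0649) was called.

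The subunits of ORC differed in both directions. ORC1 (LOC4340349), an ATP-binding subunit of the complex, gave 1200, 948, 957, 1033 and 733 in 93-11, against 593, 867, 563, 587 and 333 in Nipponbare. The deposited ranges overlapped through the lowest 93-11 array and the second Nipponbare array only, and the scaled ones did not overlap. The difference was 0.76 ± 0.21 as deposited (SE, n = 5 each, limma adjusted p = 0.0269) and 1.11 ± 0.13 scaled (limma adjusted p = 2.22e-05). ORC2 (LOC4331860) gave 704, 538, 532, 496 and 765 in 93-11, against 422, 549, 337, 387 and 298 in Nipponbare. Its difference was 0.60 ± 0.19 as deposited (SE, n = 5 each, limma adjusted p = 0.0444) and 0.94 ± 0.12 scaled (limma adjusted p = 5.93e-05). As deposited, again only the second Nipponbare array reached into the 93-11 range. This array had the highest trimmed mean signal of all arrays, at 377, and after scaling the ORC2 ranges did not overlap.

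ORC4 (LOC4324139) was lower in 93-11 by both of its probe sets. The probe set ending in S1_s_at gave 201, 182, 282, 229.5 and 237 in 93-11, against 370.5, 561, 377, 419.7 and 310.0 in Nipponbare, without overlap. The difference was -0.79 ± 0.18 as deposited (SE, n = 5 each, limma adjusted p = 0.00625) and -0.46 ± 0.11 scaled (limma adjusted p = 0.0117). The probe set ending in S1_a_at gave 109, 79.0, 115, 113 and 83.9 in 93-11, against 156, 269, 182, 238 and 153 in Nipponbare, with differences of -0.87 ± 0.20 as deposited (SE, n = 5 each, limma adjusted p = 0.00627) and -0.55 ± 0.14 scaled (limma adjusted p = 0.0138), where the groups overlapped and quantile normalization ended the call. The 2 probe sets share a name stem and so may share sequence, and neither signal exceeded the log10 threshold of 2.5 in 93-11. Of the other subunits, ORC5 was higher in 93-11 after scaling, by 0.33 ± 0.09 (SE, n = 5 each, limma adjusted p = 0.0244), and ORC3, at a scaled difference of 0.45 ± 0.15, was not called (limma adjusted p = 0.0589). The deposited difference of ORC5 was -0.004, and ORC5 was not called as deposited or with scaling to the hybridization controls.

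Within the helicase ring, OsMCM5 was called higher in 93-11 after scaling and OsMCM2 lower as deposited. OsMCM5 (LOC4331016) gave 3925, 3235, 3434, 2938 and 3045 in 93-11, against 2218, 3334, 2260, 2418 and 1796 in Nipponbare. As deposited the second Nipponbare array lay within the 93-11 range and the difference of 0.48 ± 0.17 was not called (SE, n = 5 each, limma adjusted p = 0.0766). Without that array the difference was 0.61 (limma adjusted p = 0.00558), and without any other single array it was not called (limma adjusted p of 0.0970 to 0.176). Scaled, the difference over all arrays was 0.84 ± 0.07 (limma adjusted p = 9.35e-07), with no overlap.

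OsMCM2 (LOC4350526) gave 4563, 3804, 4014, 3519 and 2959 in 93-11, against 6234, 8152, 5581, 4965 and 4144 in Nipponbare. Only the lowest Nipponbare array fell within the 93-11 range. The difference was -0.60 ± 0.19 as deposited (SE, n = 5 each, limma adjusted p = 0.0456) and -0.24 ± 0.09 scaled (limma adjusted p = 0.0990), where quantile normalization (limma adjusted p = 0.0312) and filters on weak probe sets called it. Of the other 4 ring subunits OsMCM4 was called higher after scaling, by 0.35 ± 0.09 (SE, n = 5 each, limma adjusted p = 0.0111), and OsMCM3, OsMCM6 and OsMCM7 had scaled differences of 0.20, 0.25 and 0.29 that were not called. The deposited difference of OsMCM4 was -0.0007, and OsMCM4 was not called as deposited or with scaling to the hybridization controls. The deposited calls of ORC1, ORC2 and OsMCM2 were close to the threshold: with 1 array left out at a time, ORC1 lost its call without any of 93-11 replicates 1 to 4 or Nipponbare replicates 1, 3 and 4 (limma adjusted p up to 0.0753). ORC2 lost it without 93-11 replicates 1, 2, 3 or 5 or Nipponbare replicates 1, 3, 4 or 5 (up to 0.114), and OsMCM2 without any array but 93-11 replicate 1 and Nipponbare replicate 5 (up to 0.126).

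**Figure D3:**
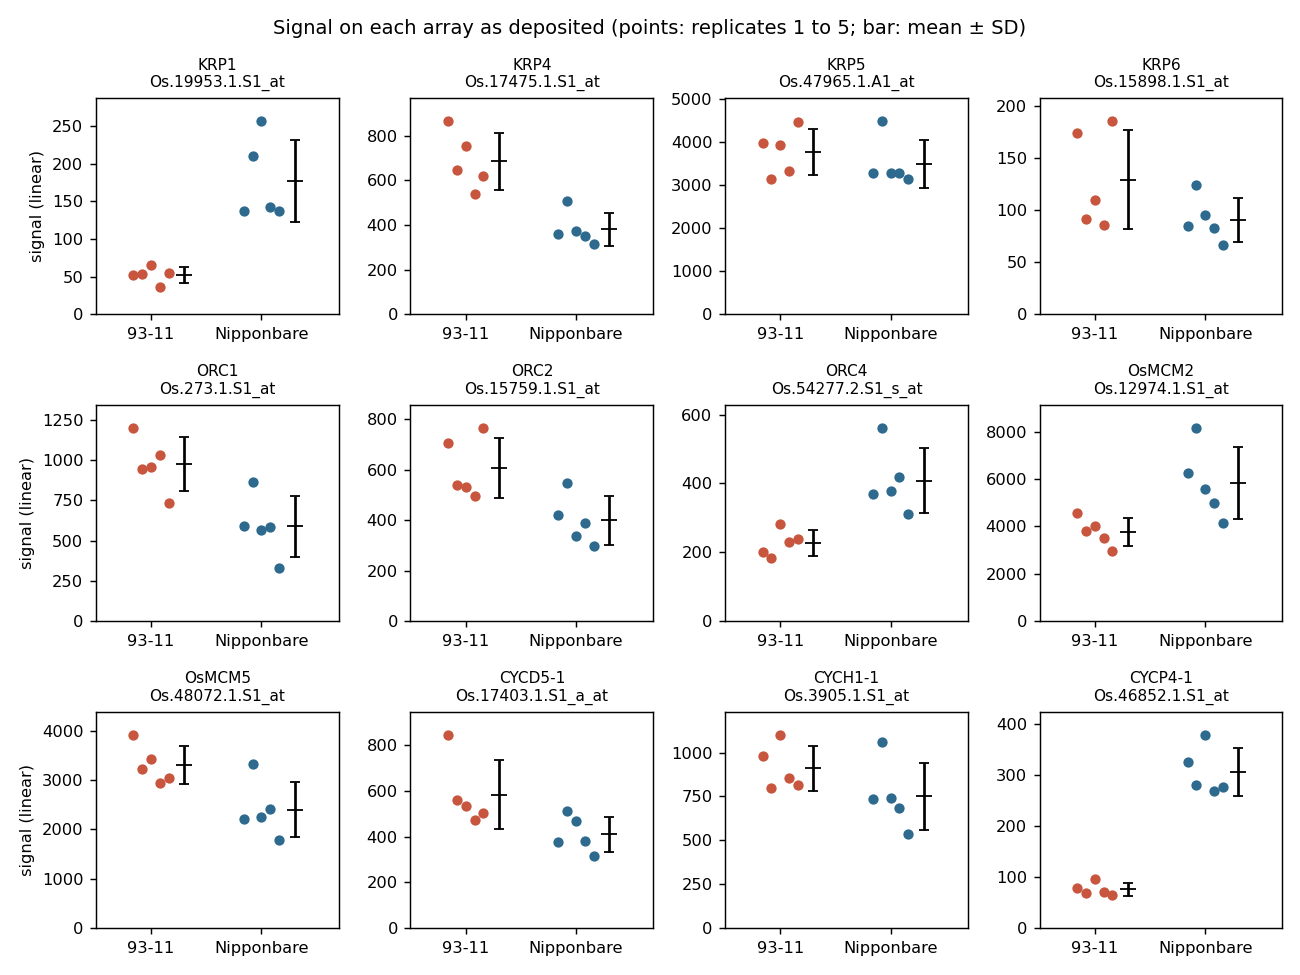
Deposited signal on each array (vertical axis, linear, from 0) of 12 probe sets, with the 5 93-11 arrays in red left of the 5 Nipponbare arrays in blue and the mean ± SD beside them. KRP1, ORC4 and CYCP4-1 were lower on every 93-11 array and KRP4 higher on every 93-11 array, while the other 8 overlap as deposited.

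Because the ratio of 2 probe sets on the same array does not change with the level of that array, it is free of the choice of scale. The ratio of OsMCM5 to OsMCM2 was 0.860, 0.851, 0.856, 0.835 and 1.03 on the 93-11 arrays, against 0.356, 0.409, 0.405, 0.487 and 0.434 on the Nipponbare arrays. The ratio of ORC1 to ORC4 (the probe set ending in S1_s_at) was 5.97, 5.21, 3.39, 4.50 and 3.09 in 93-11, against 1.60, 1.54, 1.49, 1.40 and 1.07 in Nipponbare. That of KRP4 to KRP1 was 16.4, 12.2, 11.4, 15.1 and 11.4 in 93-11, against 2.60, 2.43, 1.46, 2.46 and 2.30 in Nipponbare. In each of the 3 ratios all 93-11 arrays lay above all Nipponbare arrays, so within each pair the genes differed unequally between the cultivars. The pairs were picked for their differences after the values had been seen, so the ratios are a description and carry no test.

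**Figure D4:**
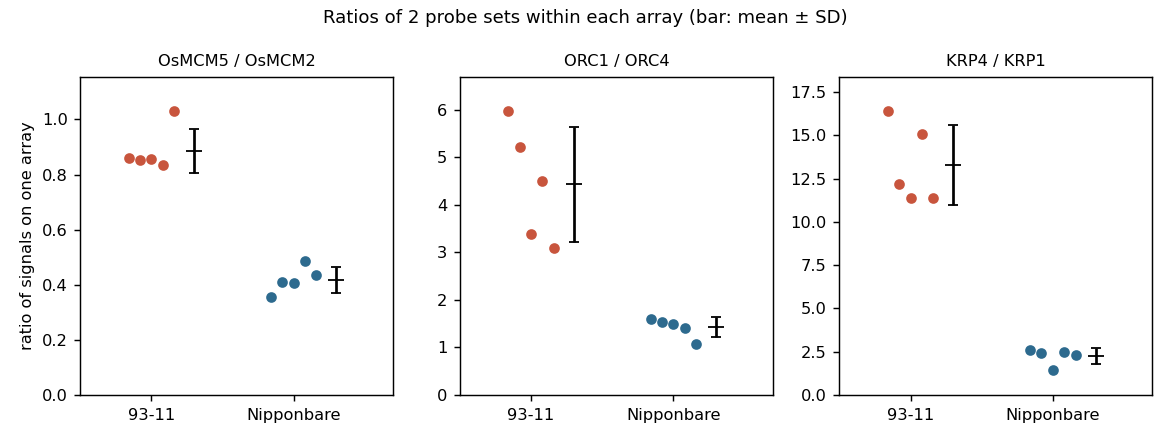
Ratio of the signals of 2 probe sets on the same array (vertical axis, linear, from 0) for OsMCM5 over OsMCM2, ORC1 over ORC4 and KRP4 over KRP1, with 93-11 in red left of Nipponbare in blue and the mean ± SD beside the points. The means are 0.886 ± 0.0806 in 93-11 and 0.418 ± 0.0477 in Nipponbare, then 4.43 ± 1.21 and 1.42 ± 0.209, then 13.3 ± 2.31 and 2.25 ± 0.454 in the same order of cultivars.

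Of the 24 cyclin probe sets, 1 was lower as deposited and none higher, and after scaling 7 were higher (29.2%) and 1 lower. All rice probe sets above 2.5 in both cultivars, as 22 of these 24 were, gave 1.04% higher and 12.4% lower as deposited. After scaling they gave 19.2% higher and 7.70% lower. Without adjustment the deposited values of the cyclins gave 1 higher and 5 lower in limma. The methods' t-test gave 1 higher and 3 lower unadjusted, and called none higher after adjustment. The lower one was CYCP4-1 (LOC4349405), a cyclin of the P type. It gave 77.8, 67.5, 96.5, 69.8 and 65.4 in 93-11, against 326, 281, 379, 268 and 277 in Nipponbare, far apart on all arrays. The difference was -1.82 ± 0.17 as deposited (SE, n = 5 each, limma adjusted p = 9.94e-07) and -1.50 ± 0.16 scaled (limma adjusted p = 1.23e-05), the largest fall among the members, at a signal below the log10 threshold of 2.5 in both cultivars.

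Among the D cyclins, which couple growth signals to the start of the cycle, 3 of 10 probe sets were called higher after scaling, against 19.2% of all rice probe sets above 2.5. CYCD5-1 (LOC4333455) gave 847, 561, 535, 474 and 504 in 93-11, against 378, 511, 468, 379.6 and 316 in Nipponbare, and its scaled difference was 0.83 ± 0.12 (SE, n = 5 each, limma adjusted p = 2.66e-04). CYCD2-2 (LOC4343936) gave 717, 582, 775, 712 and 867 in 93-11, against 456, 888, 540.3, 679 and 479.7 in Nipponbare, with a scaled difference of 0.64 ± 0.13 (SE, n = 5 each, limma adjusted p = 0.00282). CYCD3-2 (LOC4346394), the strongest D cyclin signal, gave 2816, 2223, 2267, 2001 and 2108 in 93-11, against 2101, 3139, 2462, 2093 and 1914 in Nipponbare. Its scaled difference was 0.33 ± 0.08 (SE, n = 5 each, limma adjusted p = 0.0128). All 3 overlapped as deposited and did not overlap after scaling, and their deposited differences of 0.48, 0.29 and -0.02 were not called. Scaled to the hybridization controls, CYCD5-1 kept its call, and CYCD2-2 (limma adjusted p = 0.0603) and CYCD3-2 (limma adjusted p = 0.675) lost it. The other 7 D cyclin probe sets had scaled differences of -0.23 to 0.42.

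A and B cyclins showed 2 calls of 8 after scaling, against the same 19.2%. These were CYCA3-2 at 0.45 ± 0.10 (SE, n = 5 each, limma adjusted p = 0.00486) and CYCB2-1 at 0.36 ± 0.08 (limma adjusted p = 0.00694). None was called as deposited, where all rice probe sets above 2.5 in both cultivars gave 1.04% higher and 12.4% lower. For the deposited A and B cyclins limma put 0 higher and 1 lower without adjustment, as did the methods' t-test. With scaling to the hybridization controls no A or B cyclin was called. CYCH1-1 (LOC4334040), known as the partner of CDKD in the complex that activates other kinases, gave 979.7, 800.1, 1102, 856 and 817 in 93-11, against 733, 1062, 740.0, 683 and 533 in Nipponbare. After scaling the groups parted, at 0.65 ± 0.08 (SE, n = 5 each, limma adjusted p = 2.76e-05). CYCT1-1 (LOC4352229), of the T cyclins that pair with CDKC in transcription, gave 3058, 2485, 2741, 2368 and 1891 in 93-11, against 2169, 3242, 2664, 2217 and 1359 in Nipponbare. Its scaled difference was 0.50 ± 0.12 (SE, n = 5 each, limma adjusted p = 0.00889), with groups that overlapped. As deposited, CYCH1-1 differed by 0.30 (limma adjusted p = 0.343) and CYCT1-1 by 0.14 (limma adjusted p = 0.744), and neither was called. Neither CYCH1-1 (limma adjusted p = 0.0709) nor CYCT1-1 (limma adjusted p = 0.405) was called with scaling to the hybridization controls.

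None of the 19 kinase probe sets was called as deposited in limma, against 1.66% higher and 11.9% lower of all rice probe sets. The unadjusted p was under 0.05 for 2 lower and 0 higher kinase probe sets. The methods' t-test called 1 lower after adjustment. After scaling 2 were called higher and none lower (unadjusted, 3 higher and 0 lower in limma, 5 higher and 0 lower by the methods' t-test). The 2 are 10.5% of the kinase probe sets, beside 7.84% of all rice probe sets and 12.6% of the paired. No CDKA or CDKB probe set was called on either scale in limma (as deposited, 0 higher and 1 lower without adjustment), and their scaled differences had a median of 0.01 against 0.16 for all members. CDKA-1, the main cell cycle kinase of plants, gave 1855 ± 374 in 93-11 and 2181 ± 576 in Nipponbare (SD, n = 5 each) with its stronger probe set, at a scaled difference of 0.14 ± 0.10 (SE, limma adjusted p = 0.401).

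The 2 kinase calls were CDKF-1 and CDKE-1. CDKF-1 (LOC4340934), of a class that in Arabidopsis activates other kinases by phosphorylation, gave 1085, 911, 1056, 878 and 904 in 93-11, against 806, 1145, 882, 794 and 727 in Nipponbare. The scaled difference was 0.51 ± 0.07 (SE, n = 5 each, limma adjusted p = 1.96e-04), with no overlap, while scaling to the hybridization controls left it at 0.34, not called (limma adjusted p = 0.213). CDKE-1, known as a kinase of the Mediator complex, was higher by 0.41 ± 0.08 with its strong probe set (SE, n = 5 each, limma adjusted p = 0.00292), and its weak further probe set, at 20.2 ± 8.42 in 93-11 and 37.8 ± 8.84 in Nipponbare (SD, n = 5 each), was not called. With scaling to the hybridization controls CDKE-1 was not called by either probe set.

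CDKF-4 (LOC4330434) was the strongest of the kinases outside CDKA and CDKB and was not called. Its stronger probe set gave 3076, 2398, 2570, 2118 and 2051 in 93-11, against 2833, 3786, 3194, 2588 and 1762 in Nipponbare, with a scaled difference of 0.17 ± 0.10 (SE, n = 5 each, limma adjusted p = 0.303). Its weaker probe set gave 1440, 1241, 1304, 1336 and 484 in 93-11, against 1368, 1897, 1745, 1573 and 387 in Nipponbare. The arrays numbered 5 were the lowest of both cultivars, and the scaled difference was 0.18 ± 0.34 (SE, n = 5 each, limma adjusted p = 0.809).

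The arrays numbered 5 were looked at further, in the controls and over all members. They had the highest ratio of the 3' to the 5' actin control, a sign of RNA quality, at 4.84 in 93-11 and 4.55 in Nipponbare, against at most 3.77 on the other 93-11 arrays and 2.99 on the other Nipponbare arrays. The GAPDH control gave another order, at 3.16 on 93-11 replicate 5 against 0.836 to 9.92 over the 93-11 arrays, and at 14.2 on Nipponbare replicate 5 against 1.87 to 59.6 over the Nipponbare arrays. After scaling, 15 of the 67 probe sets were lower on the array numbered 5 than on the other 4 arrays in both cultivars, among them ORC1, CYCT1-1 and OsMCM7. This compares with 9.56% of all rice probe sets and 19.5% of those above 2.5 in both, and the members' share was near the latter. Above the other 4 in both cultivars were 4 members, against 8.21% of all rice probe sets, and 6 were below in one cultivar and above in the other. Each cultivar holds 1 array numbered 5. Without both of these arrays the 24 probe sets chosen by the naming rule kept their direction and their side of the threshold after scaling. As deposited ORC2 lost its call (0.42, limma adjusted p = 0.127). The 24 were chosen in part for their calls on all arrays, so that they kept them is no independent support. Over all 67 members, 22 were then called higher and 4 lower after scaling, against 18 and 4 with all arrays.

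By array, the 17 ORC and MCM probe sets had median deviations of scaled log2 signal from their mean over all arrays of 0.13, 0.22, 0.18, 0.21 and -0.08 on the 93-11 arrays, against -0.20, -0.10, -0.16, 0.03 and -0.32 on the Nipponbare arrays. For all 67 members these were 0.12, 0.12, 0.10, 0.17 and -0.0038 in 93-11, against -0.13, -0.07, -0.07, -0.0062 and -0.19 in Nipponbare. In both, the arrays numbered 5 were the lowest of their cultivar.

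Of 13 genes with several probe sets, 8 had no scaled call in any of them. Of the 5 with a call, ORC4 was called in both of its probe sets, and KRP4, KRP6, CDKE-1 and OsMCM9 had 1 probe set called and the rest not called. None had opposite calls. In OsMCM9 the called probe set was weak, at 287 ± 64.5 in 93-11 and 264 ± 105 in Nipponbare (SD, n = 5 each). It was not called with scaling to the hybridization controls. The median SD of scaled log2 signal within a cultivar was 0.21 for the 23 members with a mean log10 signal of 2.5 to 3.0, against 0.19 for all rice probe sets of that range. At 3.0 to 3.5 it was 0.13 for 18 members, against 0.16 for all, and at 2.0 or less 0.66 for 11 members, against 0.96 for all.

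Other genes of the cycle and of replication were found by symbol. The list held 32 probe sets of 26 genes, among them the retinoblastoma-related proteins, the clamp loader RFC, the single-strand binding protein RPA and the flap nuclease FEN1, and 27 were above 2.5 in both cultivars. As deposited none was higher and 1 was lower, OsRPA32-3, at 461 ± 66.4 in 93-11 and 719 ± 145 in Nipponbare (SD, n = 5 each, limma adjusted p = 0.0244). Of all rice probe sets 1.66% were higher and 11.9% lower as deposited. Without adjustment both limma and the methods' t-test put 0 higher and 3 lower on the list. Once the arrays were scaled, 4 were higher, CDC25.1, OsRFC2, OsRPA32-2 and a probe set of OsTOP6A2, by 0.29 to 0.55, and none lower (unadjusted, 9 higher and 1 lower with either test). The 4 are 12.5% of the list, beside 12.6% of all paired probe sets and 19.2% of all rice probe sets above 2.5 in both cultivars. The median difference of the list was -0.19 as deposited and 0.17 scaled, next to -0.18 and 0.16 for the members.

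Young panicle markers were detected as the label has it, and several markers differed between the cultivars. Of 16 probe sets of young panicle markers (MADS-box and meristem genes) 14 were above 2.5 in both cultivars, with a summed signal of 28630 to 38520 in 93-11 and 34190 to 54760 in Nipponbare, while none of 9 endosperm and none of 2 pollen and anther probe sets was. Of the panicle markers a probe set of OSH1 (1635 in 93-11, against 5247 in Nipponbare) and OsMADS16 (2772 in 93-11, against 4312 in Nipponbare) were lower on both scales, RFL (1095 in 93-11, against 691 in Nipponbare) was higher on both, and OsMADS3 and a probe set of OsMADS2 were higher after scaling. The weak anther marker TDR was lower on both scales, at 18.1 in 93-11 against 62.7 in Nipponbare. The summed signal of the 7 green leaf probe sets was 464 to 2515 on the 93-11 arrays, against 11650 to 19250 on the Nipponbare arrays, and CAB2R made up most of it in Nipponbare. In this list 3 probe sets were lower in 93-11 on both scales: both of CAB2R, a light-harvesting protein, at 573 in 93-11 against 8948 in Nipponbare and at 178.5 in 93-11 against 4149 in Nipponbare, and that of PSAH, a subunit of photosystem I, at 52.7 in 93-11 against 468.5 in Nipponbare. The 4 RBCS probe sets, of which 1 was called higher in 93-11 after scaling, had mean signals of at most 189 in 93-11 and 189.5 in Nipponbare. The part of these marker differences in those of the cell cycle genes was not tested.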

How the data were processed

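RNA of young panicles was measured on 10 arrays, 5 of each cultivar. Per the labels the arrays were processed by the authors with GCOS 1.3, and the deposited intensity is 1 linear signal per probe set and array. How probe pairs were summarised or scaled is not given in the sources used here. Affymetrix controls were left out, and 57258 rice probe sets were tested. The two-sided test of 93-11 minus Nipponbare was limma 3.58.1 (R 4.3.3) with an intensity trend and without a block, on log2(signal + 16). P-values were adjusted over all probe sets by Benjamini-Hochberg, with a threshold of 0.05. It was run on the values as deposited and with each array scaled to a common mean trimmed by 2% at each end. The 16 added makes differences of weak probe sets smaller. The precision is limited by the number of arrays.

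Genes were paired through the platform annotation and RefSeq names of assembly ASM3414082v1. Named in full were the up to 10 probe sets with the largest called difference each way without overlap of the cultivars, the strongest of each role, and all probe sets of those genes. Genes named beyond this rule were chosen after their values were seen. The members and lists were chosen with earlier results of these data known. The methods' t-test is the per-probe ANOVA of the study applied to the signals of probe sets. Alternatives were quantile normalization, other constants, filters on weak probe sets, other variance settings, the t-test, a replicate block and arrays left out. Scaling to 9 hybridization controls was added after seeing the data. Python 3.11.15 with pandas 2.3.3, numpy 2.4.6 and scipy 1.17.1 made the tables and matplotlib 3.10.9 the figures. The fit was tested on simulated data.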

Additional observations from a re-analysis of the deposited data

Results flagged for a closer look

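In 48 groups of 5 arrays, 24 probe sets in each of the cultivars, 3 held an array whose gap to the nearest other array exceeded 0.71 of the range of the group, where chance gives about 1 in 20 groups. CYCD5-1 was highest on 93-11 replicate 1 at 847, with the nearest array at 561. KRP5 was highest on Nipponbare replicate 2 at 4490, with the nearest array at 3280. That array had the highest trimmed mean signal of all 10, at 377. After scaling it was the lowest Nipponbare array for KRP5, at a log2 signal of 11.52. The weaker probe set of CDKF-4 was lowest on 93-11 replicate 5 at 484, with the nearest array at 1241, and Nipponbare replicate 5 was also the lowest of its cultivar at 387.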

How the results depend on the processing

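Values are probe sets called among the 67. As deposited, quantile normalization raised the number higher in 93-11 to 20 and the methods' t-test lowered it to 1, against 3, and single arrays left out gave 1 to 4. The number lower as deposited, 5, was 2 when only the 46 members with a mean log10 signal above 2.5 were tested. That filter left CYCP4-1, KRP1 and ORC4 out of the test, and 1 of the 2 was among the 5. Without both arrays numbered 5 the number was 9 (where ORC2 lost its higher call). With single arrays left out the number was 4 to 10, and 10 without Nipponbare replicate 5. Scaled to the hybridization controls, 5 were higher, against 18, all of them among the 18. The number lower after scaling, 4, was 1 with the filter at 2.5. The filter took all 4 out before the test, and the 1 was OsMCM2, so it does not show whether the 4 calls hold. With a threshold of 3.0 in place of 2.5, 23 probe sets were above it in both cultivars, against 46. CYCD3-2 changed sign under quantile normalization of the deposited values, to 0.29 (limma adjusted p = 0.0186). The deposited calls of ORC1 (limma adjusted p = 0.0969), ORC2 and OsMCM2 (limma adjusted p = 0.0983) were lost in the t-test, and the scaled call of the ORC4 probe set ending in S1_a_at under quantile normalization. With any single array left out, the scaled calls of the 24 probe sets chosen by the naming rule did not change, and of all 18 higher calls 16 to 18 remained. The 24 were chosen in part for these calls. Same-numbered arrays did not deviate together in all pairs (r of 0.005, -0.07, 0.03, 0.16 and 0.22 as deposited). For 93-11 replicates 4 and 5 the closest Nipponbare array bore the same number, and for replicates 1, 2 and 3 it did not. Whether the numbers mark a shared handling was not tested. With the replicate number as a block, the deposited values gave 2 higher and 5 lower, and the scaled ones 22 higher and 5 lower, ORC2 as deposited was not called (limma adjusted p = 0.0674) and OsMCM2 after scaling was called lower (limma adjusted p = 0.0496), as it was with quantile normalization (0.0312) and with the filters at 2.0 (0.0472) and 2.5 (0.0494).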

Other observations

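EL2, a rice inhibitor of cyclin-dependent kinases outside the KRP family, had 1 array far from the rest. Its stronger probe set gave 576, 443, 608, 503 and 3537 in 93-11, against 539, 742, 279.8, 282 and 306 in Nipponbare. Its weaker probe set gave 59.7, 52.0, 76.0, 79.8 and 867 in 93-11, against 83.9, 137, 32.3, 57.7 and 65.6 in Nipponbare. Replicate 5 of 93-11 was the high array in both, and neither probe set was called on either scale. EL2 was chosen for this after its values had been seen.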
